A study of Caenorhabditis elegans with 2 samples.

Results

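DNA replication genes of Caenorhabditis elegans were examined for binding of HMG-20, a DNA-binding protein of the high-mobility-group class, in whole young adult worms. A fixed list of 34 gene symbols was looked up in the Ensembl annotation of WBcel235, and 34 of 34 were found among 19973 protein-coding genes. By role, 13 genes act in origin licensing, 19 at or behind the replication fork and 2 in nucleotide supply. The worms were of strain RW12240, whose hmg-20 gene on chromosome I carries the insertion st12240[hmg-20::TY1::EGFP::3xFLAG], made by CRISPR, and were collected at 64 hours after synchronization by starvation as L1 larvae. The fusion protein was precipitated with an antibody against GFP in 2 biological replicates of 1 group. Every sample carries the tag, and no untagged or input sample was analysed here, so no comparison between conditions can be made. Whole animals mix germline and somatic nuclei, so a weak region in all cells and a strong region in few cells cannot be told apart.

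Before DNA is copied, the origin recognition complex, CDC-6 and CDT-1 load the ring-shaped MCM helicase onto DNA, a step called licensing. GINS then joins the helicase, primase and polymerase alpha lay down primers, the clamp loader RFC places the sliding clamp PCNA, and RPA covers the exposed single strands. Ligase and flap nucleases join the lagging-strand pieces, topoisomerases relieve torsion, and ribonucleotide reductase makes the deoxynucleotides. In adult hermaphrodites the germline is the tissue with proliferating nuclei. In animals many of these genes are targets of E2F factors, and C. elegans has the E2F factor EFL-1.

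The 5' end of an annotated transcript is called a start here. Each gene was scored by the peak regions with a summit in its promoter window, which reaches from 1000 bp before to 200 bp past any of the gene's starts. The regions came from the ranked list of both replicates, which holds 59096 nuclear regions with a pooled peak signal, a score and a signal for each replicate. The score is a scaled irreproducible discovery rate (IDR), a measure of how poorly a region's rank recurs between replicates. A score of 830 stands for an IDR of 0.01, one of 540 for an IDR of 0.05, and 27 is the lowest in the list. The conservative list holds the 979 nuclear regions that the authors kept at a score of 830 or more. The signal is the value the authors deposited for each peak, and its scale is not stated. Read depth is unknown, because peak lists give no totals. No test was made of any count below, since genes are not replicates and the gene list was chosen with earlier results of these data known.

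Of the 34 DNA replication genes, 5 had a conservative summit in the promoter window, against 3.13% of all protein-coding genes. They were rpa-2, pcn-1, top-2, ctf-4 and cdc-6, or 14.7% of the list. At a score of 540 or more the count was 7, with rfc-4 and mcm-3 added, or 20.6% of the list against 4.78% of protein-coding genes. A ranked summit of any score was present at 28 of the 34 genes (82.4%), against 54.6% of protein-coding genes, and most such regions lie far below the authors' threshold. The other 6 genes, orc-1, orc-3, cdt-1, psf-3, rfc-1 and exo-1, had no ranked summit in the window and hence no signal value. Over the 28 genes with a ranked summit, the strongest region had a median pooled signal of 30.7, against 26.97 over the 10906 protein-coding genes with one, whose quartiles were 20.7 and 35.6. That order turned round, at 25.7 against 25.9, with summits given to the nearest gene of any class alone, and at 26.1 against 26.5 with the nearest protein-coding gene. The strongest region exceeded that upper quartile at 11 of the 28 genes and that median at 15.

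**Figure D1:**
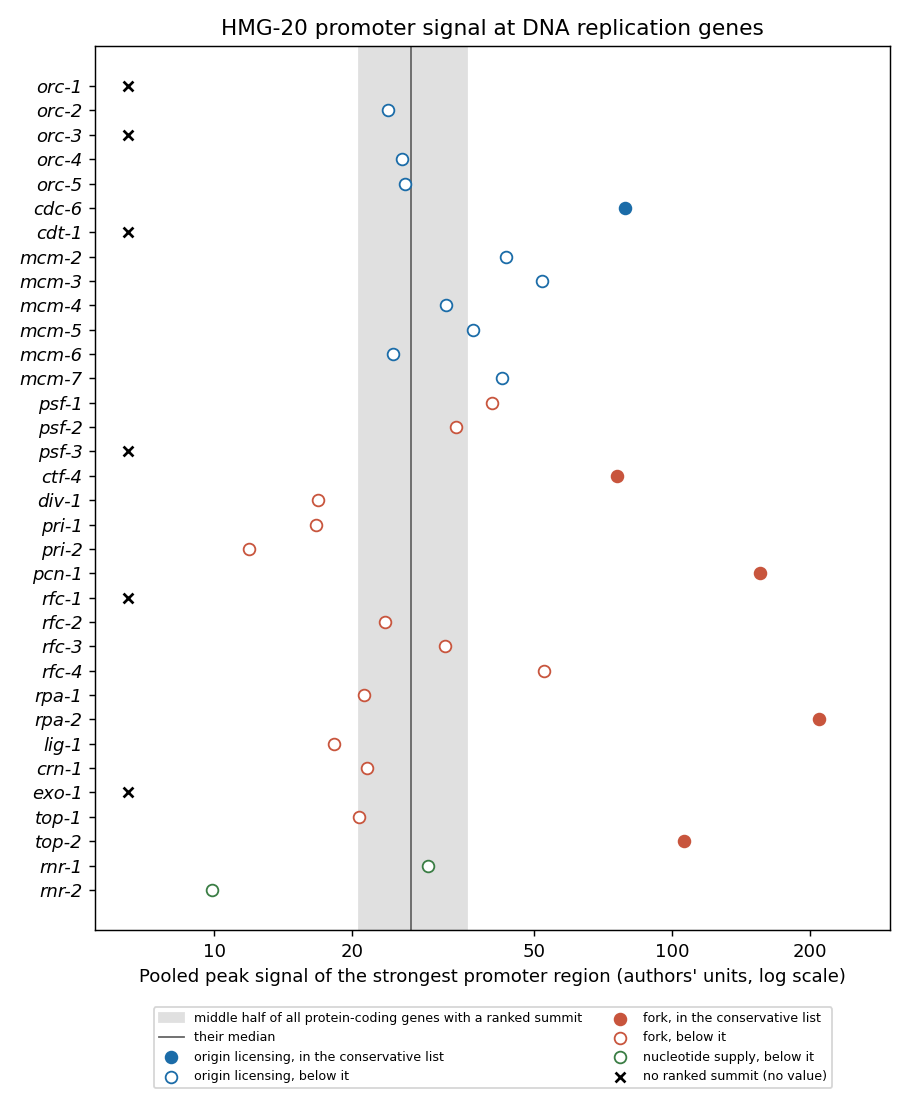
Pooled peak signal of the strongest region in the promoter window (x axis, authors' units, log scale) for each of 34 DNA replication genes (y axis), coloured by role; filled points are in the conservative list, crosses have no ranked summit. The 5 filled points lie between 75.7 and 209, and the 23 open ones between 9.89 and 52.6; the grey band spans the quartiles of all protein-coding genes with a ranked summit, 20.7 to 35.6.

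Shares were also compared at set levels of signal. A pooled signal of at least 20 was reached by 67.6% of the replication genes and 42.5% of protein-coding genes. At 40 the shares were 29.4% and 9.67%, and at 75 they were 14.7% and 1.86%. A signal of at least 150 was found at 2 replication genes, rpa-2 and pcn-1, and at 67 protein-coding genes in all (0.335%). The members were known to include strong peaks when the list was made, so these shares describe the list and do not test it.

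**Figure D2:**
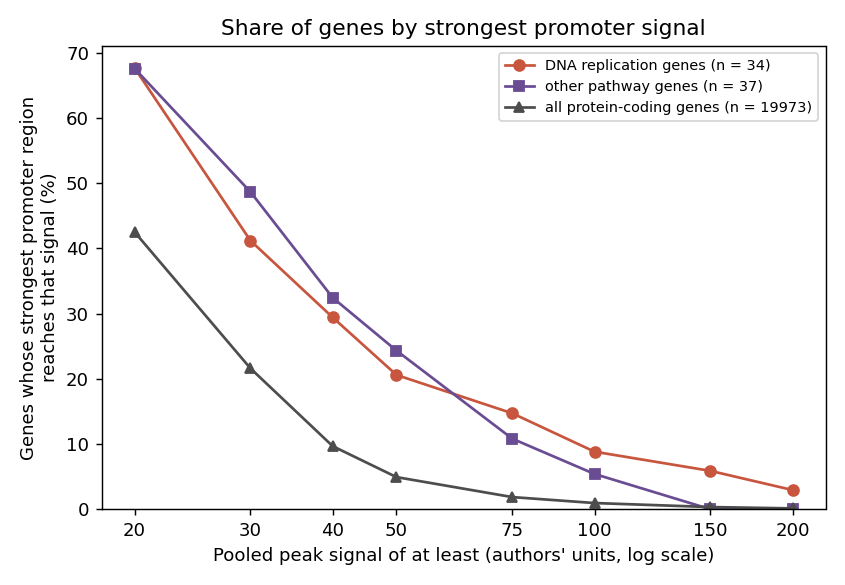
Share of genes (y axis, percent) whose strongest promoter region reaches the pooled signal on the x axis (authors' units, log scale), for 34 DNA replication genes, 37 other genes of the pathway and 19973 protein-coding genes. At a signal of 40 the shares are 29.4%, 32.4% and 9.67%, and at 75 they are 14.7%, 10.8% and 1.86%.

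The highest signal of the list stood upstream of rpa-2 (WBGene00019767; chromosome I, 4770292 to 4771358, plus strand), which encodes a subunit of the single-strand binding protein RPA. Its region (chromosome I, 4769576 to 4769695) had replicate signals of 137 and 71.7, or 104 ± 46.2 (mean ± SD, n = 2), a pooled signal of 209 and the top score of 1000. It was the 54th strongest of all ranked nuclear regions. The first value was the highest at any member's strongest region, and the second, 71.7, lay between the values of pcn-1, 73.4 and 69.9. The summit lay 655 bp upstream of rpa-2 and 574 bp upstream of the lincRNA gene M04F3.7, which was nearer. A further region, 179 bp inside rpa-2, had replicate signals of 33.6 and 23.2 and a score of 751.

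The region of pcn-1 (WBGene00003955; chromosome IV, 4047937 to 4049448, minus strand), the gene of the sliding clamp PCNA, was the most even between replicates of the 5. Its replicate signals were 73.4 and 69.9, or 71.7 ± 2.47 (SD, n = 2), with a pooled signal of 156 and a score of 1000. The summit of this region (chromosome IV, 4049658 to 4049744) lay 254 bp upstream of pcn-1, and no other gene's window held it. This made pcn-1 the sole member whose conservative summit was nearest to its own start.

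At top-2 (WBGene00010785; chromosome II, 11875148 to 11880588, plus strand), a topoisomerase II gene, the replicate signals were 55.7 and 47.0, or 51.3 ± 6.13 (SD, n = 2), and the pooled signal was 106. The summit of its region (chromosome II, 11874785 to 11875040) stood between 2 divergent genes, 235 bp upstream of top-2 and 125 bp upstream of npp-3, a nuclear pore protein gene. The ctf-4 gene (WBGene00008921; chromosome V, 10961834 to 10965539, minus strand) encodes an adaptor of the replisome. Its region, at 10965561 to 10965816 of chromosome V, had replicate signals of 42.4 and 35.8, or 39.1 ± 4.70 (SD, n = 2), and a pooled signal of 75.7. That summit lay 150 bp upstream of ctf-4 but 30 bp upstream of eef-1G, a translation elongation factor gene on the other strand. The helicase loading gene cdc-6 (WBGene00000382; chromosome I, 4268070 to 4270287, minus strand) had replicate signals of 49.5 and 25.9, or 37.7 ± 16.7 (SD, n = 2), and a pooled signal of 78.9. The summit of that region (chromosome I, 4270453 to 4270708) was 294 bp upstream of cdc-6 and 85 bp upstream of acin-1. All 3 regions had the top score of 1000. The replicate signals of cdc-6 overlapped those of both top-2 and ctf-4, while those of top-2 and ctf-4 did not overlap.

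The lists called on each replicate alone held some of these regions. Regions at rpa-2 and pcn-1 were in the thresholded lists of both replicates, those at top-2 and cdc-6 in the list of replicate 1, and that at ctf-4 in neither. So 4 of 34 genes were called in replicate 1 (11.8%, against 1.75% of protein-coding genes) and 2 in replicate 2 (5.88%, against 1.56%). When a summit was given only to the gene of any class with the nearest start, 1 of the 34 genes was called, pcn-1 (2.94%, against 1.71%). Given to the nearest protein-coding gene, 2 were called, pcn-1 and rpa-2 (5.88%, against 2.34%). The other 3 called genes, top-2, ctf-4 and cdc-6, share their summit with a protein-coding neighbour whose start is nearer.

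The sequences under 7 of these summits are shown because matches to E2F-type letters, described below, fall inside several of them. Each is the reference sequence of WBcel235 (the RefSeq copy) on the strand of the replication gene, 5' to 3', up to 75 bases on each side of the summit and without annotated untranslated regions. The summit is base 76 of 151, except at ctf-4, where it is base 30 of 105. Capitals mark matches on either strand to 6 motifs. The E2F-type letters searched were TTCCCGC in one form, with TTGGCGC as another form and TTCGCGC as the last. The CHR-type motifs were TTTGAA in one form and its variant TTCGAA, which equals its own reverse complement. The motif GGGCGG is a GC box.
pcn-1, minus strand, chrIV:4049627-4049777: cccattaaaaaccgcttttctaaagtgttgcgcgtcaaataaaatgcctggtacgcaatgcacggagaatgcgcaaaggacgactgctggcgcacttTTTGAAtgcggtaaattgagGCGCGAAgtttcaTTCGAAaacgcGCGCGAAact
top-2, plus strand, chrII:11874838-11874988: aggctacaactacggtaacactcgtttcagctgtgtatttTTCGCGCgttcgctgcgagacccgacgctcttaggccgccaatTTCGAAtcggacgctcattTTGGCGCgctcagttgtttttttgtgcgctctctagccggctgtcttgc
ctf-4, minus strand, chrV:10965614-10965718: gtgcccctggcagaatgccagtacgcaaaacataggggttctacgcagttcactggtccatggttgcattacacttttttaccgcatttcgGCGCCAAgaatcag
rfc-4, plus strand, chrIII:6972021-6972171: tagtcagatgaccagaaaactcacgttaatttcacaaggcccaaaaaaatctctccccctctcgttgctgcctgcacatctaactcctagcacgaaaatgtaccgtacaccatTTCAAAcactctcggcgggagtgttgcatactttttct
mcm-2, minus strand, chrII:12006785-12006935: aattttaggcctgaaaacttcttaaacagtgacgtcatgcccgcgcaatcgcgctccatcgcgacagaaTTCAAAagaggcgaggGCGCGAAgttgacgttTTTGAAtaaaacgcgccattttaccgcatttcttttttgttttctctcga
mcm-5, minus strand, chrIII:4291388-4291538: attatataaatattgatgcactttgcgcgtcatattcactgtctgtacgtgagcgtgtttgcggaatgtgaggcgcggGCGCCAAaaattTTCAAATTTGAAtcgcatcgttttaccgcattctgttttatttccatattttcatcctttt
mcm-7, plus strand, chrV:4346932-4347082: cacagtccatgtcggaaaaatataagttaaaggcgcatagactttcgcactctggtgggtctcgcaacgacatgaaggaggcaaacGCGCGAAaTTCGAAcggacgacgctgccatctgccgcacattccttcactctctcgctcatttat
All capitals at pcn-1, ctf-4, rfc-4, mcm-5 and mcm-7 lie past the summit, on the side of the gene, while top-2 and mcm-2 have matches on both sides. The summit of rfc-4 has no E2F-type match, and those of the other 6 have at least 1 within the printed bases, which were chosen to show these letters. Within 50 bp of the summit, ctf-4 has no E2F-type match, and neither do rpa-2 and cdc-6, which are not printed.

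Among the origin licensing genes, the MCM helicase set stood below the conservative threshold, with a higher median than the origin recognition complex. All 6 MCM genes had a ranked summit (54.6% of protein-coding genes had one), with strongest pooled signals of 24.6 to 52.1 and a median of 39.6. A conservative one was found at 0 of 6, against 3.13% of protein-coding genes, so 6 genes are too few to show a lack. The mcm-3 gene (WBGene00003155) had the highest, in a region at 15060152 to 15060407 of chromosome V with its summit 681 bp upstream, with replicate signals of 22.1 and 33.3, or 27.7 ± 7.95 (SD, n = 2), and a score of 636. That summit lay inside C25D7.15, a protein-coding gene on the other strand, 472 bp past its start. A second mcm-3 summit, 143 bp upstream, had 19.7 and 21.2 and a score of 341, and stood between both genes, 66 bp from C25D7.15. At mcm-7 the summit was 159 bp upstream, with replicate signals of 30.01 and 20.3 and a score of 538, just under the 540 of an IDR of 0.05. At mcm-2 it was 235 bp upstream, with 22.5 and 17.8 and a score of 305. Values at mcm-5, 197 bp upstream, were 18.8 and 17.2 with a score of 228, and at mcm-4, 138 bp upstream, 16.4 and 15.4 with a score of 156. These 4 summits had their own gene's 5' end as the nearest. The mcm-6 gene was the lowest of the set, with 13.1 and 10.7 and a score of 77. Its strongest summit lay inside the gene, 595 bp upstream of an internal start. It was also 319 bp inside srxa-10, a chemoreceptor gene that lies within mcm-6 on the other strand. A weaker summit, 62 bp upstream of the first start of mcm-6, had 9.13 and 12.1 and a score of 27. Replicate values of mcm-2 and mcm-5 overlapped, while those of mcm-5, mcm-4 and mcm-6 followed each other without overlap.

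Genes of the origin recognition complex, which marks origins, had a ranked summit at 3 of 5 members (60%, against 54.6% of protein-coding genes). Their strongest pooled signals were 24.0 to 26.1, with a median of 25.7. No ranked summit lay in the window of orc-1 or orc-3. At orc-2 the strongest summit, 24 bp past the start, had replicate signals of 15.8 and 9.14 and a score of 64. The strongest orc-5 region had 8.26 and 18.4 and a score of 57. Its summit lay inside the gene, 370 bp upstream of an internal start. A summit 562 bp upstream of the first start of orc-5 had a pooled signal of 22.6 and was nearer to cyb-1. At orc-4 the values were 6.84 and 22.9, with a score of 27, the lowest in the list. Their ratio of 3.35 was the largest between replicates among the members' strongest regions. That summit also lay inside its gene, 112 bp past an internal start. A weaker summit, 893 bp upstream of the first start of orc-4, had a pooled signal of 18.8. The orc-1 and orc-4 genes are neighbours on the same strand with 111 bp between them. Of the loading factors, cdc-6 was the licensing gene with a conservative summit, and cdt-1 (chromosome I, 3223160 to 3228104) had no ranked summit. Placed in order of pooled signal, the licensing genes ran cdc-6, mcm-3, mcm-2, mcm-7, mcm-5, mcm-4, orc-5, orc-4, mcm-6 and orc-2. Among neighbours in this order, replicate values did not overlap between mcm-7 and mcm-5 or between mcm-5 and mcm-4. The values of cdc-6 overlapped those of mcm-3, which overlapped those of mcm-2 and mcm-7, and the values of orc-4 and orc-5 overlapped those of mcm-5, mcm-4, mcm-6 and orc-2.

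The fork genes spanned the widest range. Of 19 genes, 16 had a ranked summit (84.2%, against 54.6% of protein-coding genes), with pooled signals of 11.9 at pri-2 to 209 at rpa-2. After rpa-2, pcn-1, top-2 and ctf-4, the next was rfc-4 (WBGene00004340), a clamp loader subunit gene. Its region, at 6971968 to 6972223 of chromosome III, had replicate signals of 22.7 and 34.0, or 28.3 ± 7.99 (SD, n = 2), a pooled signal of 52.6 and a score of 674. Its summit lay 157 bp upstream of rfc-4, 384 bp upstream of eef-1A.1, a translation elongation factor gene, and 11 bp upstream of the microRNA gene cel-mir-5549. The other clamp loader genes were lower, with 10.9 and 16.1 at rfc-3 and 16.2 and 8.28 at rfc-2, and rfc-1 had no ranked summit. Among the GINS genes, psf-1 had 21.9 and 17.9 with a score of 298 at a summit 128 bp upstream of psf-1 and 3 bp upstream of R53.9, an ncRNA gene. The psf-2 summit, 188 bp inside the gene, had 11.7 and 14.4, and psf-3 had no ranked summit.

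Primer synthesis genes had the lowest pooled signals at the fork, 11.9 to 16.9, while their replicate values overlapped those of other fork genes. The polymerase alpha subunit gene div-1 had replicate signals of 15.2 and 7.44, and the primase genes had 9.62 and 9.89 at pri-1 and 10.5 and 8.54 at pri-2, each with the lowest score of 27. The strongest div-1 region lay 168 bp from cor-1, and the deposited list gave the same pair of replicate signals to a second region in the div-1 window, and likewise at lig-1 and pri-2. Of the second RPA and topoisomerase genes, rpa-1 had 11.5 and 17.6 and top-1 had 10.8 and 14.7, with scores of 76 and 73. Neither value of rpa-1 reached 71.7, the lower one at rpa-2, and neither value of top-1 reached 47.0, the lower one at top-2. With 2 replicates this shows only that the values did not overlap. The rpa-2 and top-2 summits also had another gene's start as the nearest. Lagging-strand maturation genes were low as well. The ligase gene lig-1 had 17.8 and 9.22, the flap endonuclease gene crn-1 had 12.9 and 8.83, and exo-1 had no ranked summit.

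Both nucleotide supply genes, which encode the subunits of ribonucleotide reductase, had a ranked summit and neither had a conservative one. Of all protein-coding genes, 54.6% had a ranked summit and 3.13% a conservative one. At rnr-1 (chromosome III, 9225339 to 9228798, minus strand) the strongest of 3 regions lay 169 bp past a start, with replicate signals of 13.0 and 24.0 and a score of 93. The rnr-2 region, 137 bp past the start, had 6.93 and 13.4 and a score of 27. Its pooled signal of 9.89 was the lowest among the strongest regions of the 28 genes. The deposited list gave the same pair of replicate signals to another region, outside the rnr-2 window. The replicate signals of rnr-1 and rnr-2 overlapped.

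By role, conservative summits were found at 1 of 13 licensing genes (7.69%), 4 of 19 fork genes (21.1%) and 0 of 2 nucleotide supply genes, against 3.13% of protein-coding genes. With the nearest gene of any class the counts were 0, 1 and 0, and with the nearest protein-coding gene or without replicate 1 they were 0, 2 and 0. A ranked summit was present at 10, 16 and 2 of them, against 54.6% of protein-coding genes. The median strongest pooled signal was 34.4 over the 10 licensing genes, 27.8 over the 16 fork genes and 19.6 over the 2 nucleotide supply genes, against 26.97 for protein-coding genes. The fork group thus had more conservative summits and a lower median than the licensing group, whose middle was set by the MCM genes. With so few genes and 2 replicates, no difference between roles was tested.

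Many of the members' regions had the start of another gene as the nearest. This held for 10 of the 28 strongest regions (35.7%), against 26.3% over all protein-coding genes with a ranked summit. With protein-coding starts alone it held for 7 of 28 (25%), against 17.5%. The nearer genes were M04F3.7 at rpa-2, npp-3 at top-2, eef-1G at ctf-4, acin-1 at cdc-6, cel-mir-5549 at rfc-4, C25D7.15 at mcm-3, srxa-10 at mcm-6, R53.9 at psf-1, cor-1 at div-1 and C29A12.1 at lig-1. Of the 5 conservative summits 4 were nearer to another gene, against 45.8% of the 625 protein-coding genes with a conservative promoter summit. The upstream protein-coding neighbour is on the opposite strand for 22 of the 34 members (64.7%), against 46.2% of protein-coding genes. Such divergent members held 4 of the 5 conservative summits, against 62.6% of protein-coding genes with one. They also held the 10 regions nearer to another gene, against 65.9% of protein-coding genes with such a region. At 6 of the 10 the nearer gene was that upstream neighbour, and at rpa-2, rfc-4, psf-1 and mcm-6 it was not. The median distance of the strongest summit to the nearest of the member's starts was 221 bp upstream. Over all protein-coding genes with a ranked summit it was 322 bp upstream. At mcm-6, orc-4, orc-5, pri-1 and rnr-1 that nearest start lies inside the gene, as does the summit.

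**Figure D3:**
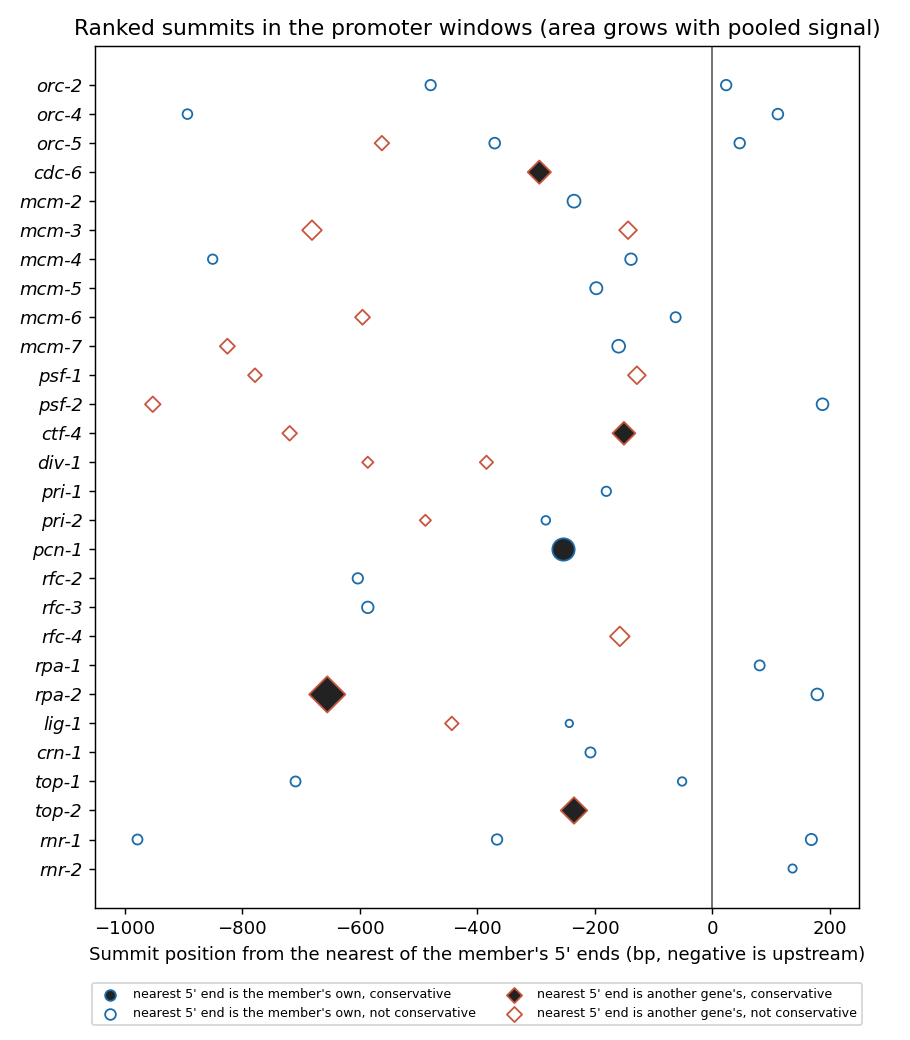
Position of each of the 46 ranked summits in the promoter windows of 28 replication genes (x axis, bp from the nearest of the gene's starts, negative is upstream); the area of a point grows with pooled signal. Filled points are conservative, diamonds are nearer to another gene's start; 4 of the 5 filled points are diamonds, and the rpa-2 summit lies farthest out of those 5, at 655 bp upstream.

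Replicates largely placed the same members on top. The 5 genes with the highest replicate means were those with a conservative summit, a list that itself rests on ranks in these replicates. They also had the 5 highest first values, whereas by the second value cdc-6 came after rfc-4 and mcm-3. The larger replicate value was 1.03 to 3.35 times the smaller over the 28 strongest regions and over 2 times at 3 of them, orc-4, orc-5 and div-1. The first value was higher at 17 and the second at the others. The ranked list does not name the replicate behind each value. Where a member's strongest region overlapped a region of a replicate's own ranked list, the own signal of replicate 1 equalled the first value in 18 of 18 regions, and that of replicate 2 equalled the second in 20 of 20. Both own lists held the strongest region of 12 members.

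**Figure D4:**
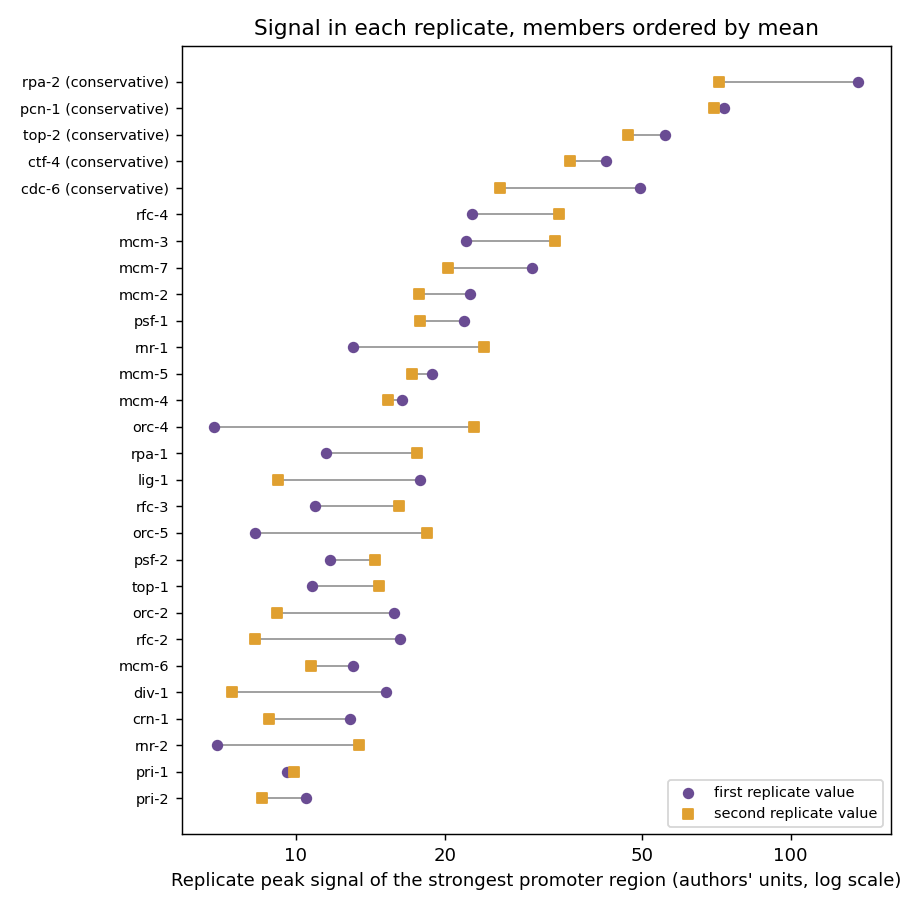
Replicate peak signals (x axis, authors' units, log scale) of the strongest promoter region of 28 replication genes, ordered by their mean; circles are the first and squares the second value in the deposited list, and lines join the values of a gene. The 5 genes with a conservative summit are on top, rpa-2 with values of 137 and 71.7, and orc-4 has the longest line, 6.84 to 22.9.

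Promoters of the replication genes were rich in E2F-type letters. Many such genes are E2F targets in animals, and genes and motifs were chosen with earlier results known. The shares below therefore describe the list and do not test it. Each protein-coding gene was given the 300 bases from 250 before to 50 after its most upstream start, and both strands were searched. At least 1 of the 3 E2F-type motifs was found in 22 of 34 replication promoters (64.7%), against 6.94% of 19973. The 37 further genes of the pathway, described below, also held them often, in 18 promoters (48.6%). TTCCCGC was in 8 of 34 (23.5%, against 3.22%), and so was TTGGCGC (23.5%, against 2.17%). TTCGCGC was in 10 (29.4%, against 24.3% of the further genes and 1.92% of all), and matches to different motifs may overlap. By role, 9 of 13 licensing promoters, 12 of 19 fork promoters and 1 of 2 nucleotide supply promoters held at least 1. They included all 6 MCM genes, and mcm-4 had the most matches, 4. The median match began 154 bp upstream of the start. The other letters set the members less apart. TTTGAA was in 27 of 34 (79.4%, against 78.4% of the further genes and 62.5% of all), TTCGAA in 10 (29.4%, against 27.0% and 18.2%) and GGGCGG in 3 (8.82%, against 7.83%).

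These letters were not limited to members with a strong peak. E2F-type letters were in the promoters of 4 of the 5 members with a conservative summit, all but cdc-6, and of 18 of the 29 without one (62.1%). Among the 6 members with no ranked summit they were in 5, all but orc-3. Over all protein-coding genes, 16.2% of the 625 promoters with a conservative summit held them, against 6.65% of the 19348 without one. Within 50 bp on each side of the summit, 8 of the 28 strongest member regions held them (28.6%), against 8.38% of the 979 conservative regions and 3.37% of all ranked ones. Both comparison sets also hold regions outside promoter windows, where no member region lies. The 8 were top-2, pcn-1, mcm-2, mcm-4, mcm-5, mcm-7, pri-2 and rnr-2. The median GC content of these 8 windows was 51.5%. Over all 28 member windows it was 44.6%, against 49.5% at conservative and 41.6% at ranked summits. A match describes the letters and is no evidence of a bound factor.

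Further genes of the pathway were counted from a list of helicase activators, polymerases, checkpoint and S-phase regulators, of which 37 of 42 symbols were found. A conservative promoter summit was present at 9 of the 37 (24.3%), against 3.13% of protein-coding genes. A ranked summit was present at 27 of them (73.0%, against 54.6% of protein-coding genes). Over these 27 the strongest region had a median pooled signal of 38.3, above the 30.7 of the replication genes. The highest pooled signal, 124, was at clsp-1, which encodes claspin, a fork checkpoint protein, with replicate signals of 69.96 and 50.6, or 60.3 ± 13.7 (SD, n = 2). Its summit lay 9 bp upstream of eef-2, a translation elongation factor gene, and 256 bp upstream of clsp-1. The timeless gene tim-1 had 66.6 and 54.3, at a summit nearest to an ncRNA gene, and unc-85, an ASF1 histone chaperone gene, had 58.4 and 43.4. The checkpoint clamp and loader genes had 41.1 and 31.6 at hpr-17, 36.6 and 30.02 at mrt-2 and 36.4 and 25.9 at hpr-9. The E2F gene efl-1 had 41.1 and 29.8, the cyclin E gene cye-1 had 39.0 and 24.1, and cul-4, whose ubiquitin ligase targets CDT-1, had 36.5 and 38.5. Of these 9 summits 5 were nearest to the gene's own start, those at cul-4, efl-1, hpr-17, mrt-2 and unc-85. The cye-1 summit lay 590 bp upstream of cye-1 but 58 bp upstream of pqn-21. That of hpr-9 was 106 bp upstream of hpr-9 and 76 bp upstream of lron-10. The tim-1 summit was 359 bp upstream of tim-1 and 137 bp upstream of the protein-coding gene Y75B8A.23. The efl-1 region was absent from the other thresholded list of both replicates. Counted by nearest gene alone, the shares were 13.5% of the further genes and 2.94% of the replication genes, against 1.71% of protein-coding genes. In the lists of single replicates, 3 of the further genes were called in replicate 1 and 2 in replicate 2 (8.11% and 5.41%, against 1.75% and 1.56%).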

How the data were processed

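The data are chromatin immunoprecipitation sequencing of tagged HMG-20 in 2 biological replicates of whole worms, grouped as 1 group by the labels. The authors deposited peak lists on ce11, per the file descriptions. Which aligner and which peak caller were used is not given in the sources used here. The deposited score is the scaled IDR, and the deposited peak signal is given as a pooled value and for each replicate. Ranked and thresholded lists were derived from both replicates or called per replicate, per the file descriptions. No counts or totals are given, so no interval from depth was computed, although depth can decide which regions pass.

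Nuclear regions were assigned to genes of Ensembl release 115 by their summit, and a gene's strongest region is the one with the highest pooled signal. No gene or region ends lay outside the reference chromosomes (0 of each), and 47 of 47 start codons of the members read as ATG. Values are mean ± SD over 2 replicates.

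The rule for named genes gives every member in full if its window holds a conservative summit or one with a score of at least 540, then the 4 strongest others of each role, and the rest by range or name. It also gives the further pathway genes with a conservative summit. Members, lists and motifs were chosen with earlier results of these data known. No significance test was run, since there is 1 group. Alternatives changed the promoter window, the 5' ends, the overlap rule, the assignment to the nearest gene and the peak list. The assignment was tested on simulated data against a full search. Python 3.11.15, NumPy 2.4.6 and pandas 2.3.3 were used, with matplotlib 3.10.9 for the figures.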

Additional observations from a re-analysis of the deposited data

How the results depend on the processing

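The number of replication genes with a ranked promoter summit stayed within 1.5 times of 28 under the 10 alternatives tried. The main setting gave 82.4%, against 54.6% of protein-coding genes. Without replicate 1 the number was 20 (58.8%, against 49.2%), and without replicate 2 it was 22 (64.7%, against 47.7%). With the nearest gene of any class it was 21 (61.8%, against 44.4%). The number with a conservative summit stayed within 1.5 times of 5 under 9 of 12 alternatives. It was 1 with the nearest gene of any class and 2 with the nearest protein-coding gene, and ran from 2 to 4 in the lists of single replicates. With a promoter of 2000 bp upstream, or with overlap in place of the summit, pri-1 joined the 5, and with 500 bp on each side rpa-2 was lost. Regions nearer to another gene numbered 6 with 500 bp on each side and 16 with 2000 bp upstream, and 7 with protein-coding 5' ends alone. The median strongest signal of 30.7 became 33.7 with 2000 bp upstream, 32.0 with the most upstream 5' end, with overlap or with the other ranked list, 25.7 with the nearest gene and 26.1 with the nearest protein-coding gene. It ran from 20.3 to 20.7 in the ranked lists of single replicates, whose signals are on the scale of 1 replicate. The cause of these changes was not tested. Under both nearest-gene rules the members' median was below that of protein-coding genes, 25.9 and 26.5. In the ranked list 16.1% of regions share both replicate signals with another region. Leaving out the weaker ones, an alternative chosen after seeing the data, gave 5 genes, 28 genes and a median of 30.7. No paired analysis was possible because there is 1 group. Depth is unknown, so a gene without a ranked summit is not shown to be unbound.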

Other observations

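A stretch of letters outside the searched set recurred in the printed sequences, and it was counted after they had been seen. TACCGCA, on either strand, was in the 300-base promoters of 7 of the 34 replication genes (20.6%), against 1.05% of 19973 protein-coding promoters. The 7 genes were mcm-2, mcm-4, mcm-5, ctf-4, div-1, pri-1 and pcn-1. Of the 7 members whose sequences are printed, 4 held it (57.1%), and these prompted the count. Among the 27 members not printed, 3 held it (11.1%). By role it was in 3 of 13 licensing promoters, 4 of 19 fork promoters and 0 of 2 nucleotide supply promoters. It was in 1 of the 37 further pathway promoters (2.70%) and in 1.92% of the 625 protein-coding promoters with a conservative summit. Within 50 bp on each side of summits it was in 3 of 28 member regions (10.7%). It was in 1.02% of conservative regions and 0.499% of ranked regions, inside or outside promoter windows. No factor is named here for these letters, and no test was made.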
